A study of Mus musculus with 28 samples.

Results

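The genes described here are 7 globin genes and Alas2, 8 of the 41605 genes in a table of read counts from developing mouse peripheral nerve. They were taken by their mouse Ensembl identifiers. All 8 were found in the table and all 8 passed the filter on low counts, as did 17700 genes in total. The libraries were poly-A RNA from C57BL/6J mice at 7 stages with 4 libraries each, 28 in all, and no transgene, deletion or treatment was part of this timeline. The stages were a pair of embryonic ones labelled E13 and E17, postnatal days 1, 5, 14 and 24 (P1, P5, P14 and P24), and the young adult at day 60 (P60). Samples at E17 and later were sciatic nerves whose outer sheaths had been peeled away, whereas samples at E13 combined several nerves lying distal to the dorsal root ganglia and were not stripped, although the label gives sciatic nerve at every stage. Embryonic samples joined the nerves of a pair of same-sex embryos, and postnatal samples came from single mice. Each stage held 2 samples from male and 2 from female animals. The animals were not perfused, so blood was not washed out of the nerve's vessels.

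Haemoglobin is a tetramer of alpha-like and beta-like globin chains, each carrying a heme group. In the mouse the first red cells come from the yolk sac and use embryonic chains, and the red cells that later come from the fetal liver and bone marrow use adult chains, a change known as globin switching. The beta-like genes lie in 1 cluster on chromosome 7 and the alpha-like genes in another on chromosome 11, with the embryonic genes nearest the distant enhancers of each cluster. Circulating red cells of adult mice have lost their nuclei and carry what remains of the RNA made in their precursors. Alas2 encodes the erythroid form of aminolevulinate synthase, which starts heme synthesis.

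Positions are given in GRCm38 from the GENCODE M21 annotation, since the table holds identifiers only, and each gene is given over its whole span of exons and introns. Of the embryonic genes, Hbb-y (ENSMUSG00000052187, beta-like epsilon-y) lies on the minus strand at chr7:103851749-103853216, and Hbb-bh1 (ENSMUSG00000052217, beta-like beta-h1) lies on the same strand at chr7:103841637-103843164. The embryonic alpha-like gene Hba-x (ENSMUSG00000055609, zeta) lies on the plus strand at chr11:32276400-32278116. The adult alpha genes Hba-a1 (ENSMUSG00000069919) and Hba-a2 (ENSMUSG00000069917) follow on that strand at chr11:32283511-32284465 and chr11:32296489-32297298. The adult beta genes Hbb-bs (ENSMUSG00000052305) and Hbb-bt (ENSMUSG00000073940) lie on the minus strand at chr7:103826534-103828096 and chr7:103812524-103813996. Alas2 (ENSMUSG00000025270) lies on the plus strand at chrX:150547375-150570638 and overlaps Apex2 and Mir3620 on the other strand. Whether the counting used the strand is not given in the sources used here, so reads of Alas2 and Apex2 in their overlap may not have been told apart.

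The members of each adult pair are nearly the same sequence. Coding sequences of Hba-a1 and Hba-a2 differed at 1 of 426 positions, and those of Hbb-bs and Hbb-bt at 1 of 441. Only 43.5% of the 100-base windows of Hba-a1 and 25.5% of those of Hba-a2 were unique among annotated transcripts. For Hbb-bs and Hbb-bt these shares were 37.4% and 45.2%. How reads with several alignments were counted is not stated, so the split of reads within a pair, and the adult level as a whole, are uncertain. All 100-base windows of Hbb-y, Hbb-bh1, Hba-x and Alas2 were unique. The embryonic beta-like coding sequences, Hbb-y and Hbb-bh1, were 76.4% identical, and Hba-x was 62.8% identical to Hba-a1.

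Promoter sequences are shown for 6 members because the embryonic genes fell by more than the adult genes and Alas2 between E13 and E17. The balance within the adult beta pair also moved, as given below. RefSeq promoters (GRCm38.p6) were matched for 7 of the 8 genes by symbol, and the 120 bases before each RefSeq start were read on the strand of the gene. In each line the capitals mark every match, on either strand, of the 3 motifs named after the sequences, and no matches overlapped. The windows are chr7:103853208-103853327 for Hbb-y, chr11:32276480-32276599 for Hba-x, chr11:32296372-32296491 for Hba-a2, chr7:103827929-103828048 for Hbb-bs, chr7:103813924-103814043 for Hbb-bt and chrX:150547297-150547416 for Alas2. For all 6, GENCODE lists a start upstream of the RefSeq start, so the windows lie partly or wholly inside the GENCODE gene span.
Hbb-y: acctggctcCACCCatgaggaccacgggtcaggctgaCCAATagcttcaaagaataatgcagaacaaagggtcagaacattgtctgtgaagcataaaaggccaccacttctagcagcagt
Hba-x: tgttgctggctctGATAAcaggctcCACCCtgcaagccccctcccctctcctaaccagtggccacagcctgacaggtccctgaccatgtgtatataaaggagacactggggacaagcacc
Hba-a2: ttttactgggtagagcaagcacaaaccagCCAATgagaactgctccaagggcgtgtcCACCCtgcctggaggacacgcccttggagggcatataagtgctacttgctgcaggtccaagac
Hbb-bs: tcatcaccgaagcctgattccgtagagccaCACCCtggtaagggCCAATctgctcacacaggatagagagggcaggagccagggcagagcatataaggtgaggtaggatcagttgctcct
Hbb-bt: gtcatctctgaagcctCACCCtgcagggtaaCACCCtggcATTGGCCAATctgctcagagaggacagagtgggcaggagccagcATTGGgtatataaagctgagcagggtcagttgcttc
Alas2: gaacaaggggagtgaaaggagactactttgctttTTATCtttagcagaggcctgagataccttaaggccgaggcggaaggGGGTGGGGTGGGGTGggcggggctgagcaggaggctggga

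The motif CACCC, read as GGGTG on the other strand, was present in all 7 windows and in 31.7% of 32851 RefSeq promoters of that length. It is the core of a box bound by Klf1-type factors. The NF-Y motif CCAAT, in reverse ATTGG, was present in 5 of the 7, the exceptions being Hba-x and Alas2, against 21.3% of all promoters. The GATA-factor motif GATAA, in reverse TTATC, was present in Hba-x and Alas2 and in 10.5% of all promoters. These are matches of letters and say nothing of binding. The windows of the adult genes that are near-copies were alike, 95.1% identical for Hba-a1 and Hba-a2 and 72.7% for Hbb-bs and Hbb-bt, while Hbb-y and Hbb-bs, an embryonic and an adult beta-like gene, were 50% identical.

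Levels are given as CPM, the counts of a gene divided by a library size and set to a common total, with library sizes scaled by TMM, a method that draws on the bulk of the genes. A gene was called between stages when edgeR's quasi-likelihood test gave a Benjamini-Hochberg adjusted p under 0.05 over all 17700 genes and a fold change of at least 2. Fold changes are log2 values of the later against the earlier stage with their standard errors. Total counts ran from 13899895 to 37662780 a library. Summed over 6 Schwann cell markers, among them Sox10, Erbb3, Mbp, Cdh19 and S100b, the level rose from a mean of 499 CPM at E13 to between 3627 and 56290 at the later stages, with every marker detected in every library. At E13, replicate 1 and replicate 4 stood apart from their stage in a trend with GC content. Their slopes were -0.93 and 0.73 on the log2 scale per 10 percentage points of GC. P1 replicate 1 was also apart, at -0.43 against 0.05 to 0.2 in the other P1 libraries. Removing the trend is one of the alternatives given at the end.

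The 7 globin genes together took 1.51% ± 1.45 (SD, n = 4) of all counts at E13 and a mean of 0.0652% at E17. From P1 to P24 the stage means lay between 0.0109% and 0.0133%, and at P60 the mean was 0.00329%. At E13 the share was 0.618%, 0.691%, 1.06% and 3.66% in replicates 1 to 4. At P60 the highest library was at 0.00426%, below the lowest library of any other stage (0.00571%, at P1). In bulk tissue, fewer red cells and less RNA per cell cannot be told apart.

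**Figure D1:**
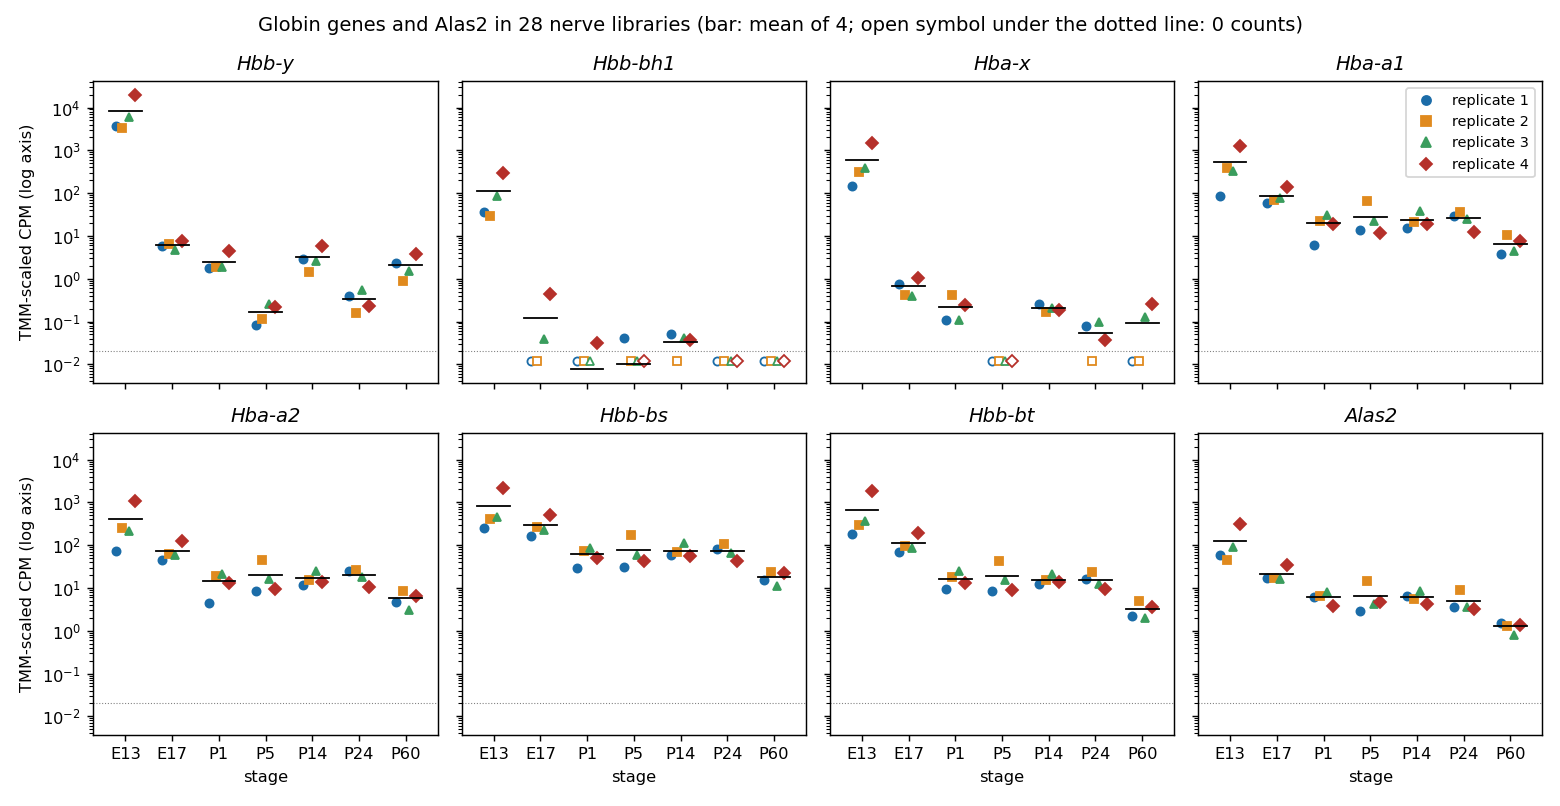
Level of each gene in every library, as TMM-scaled CPM on a log axis against stage, with a symbol per library and a bar at the mean of 4; open symbols under the dotted line are libraries with 0 counts. Hbb-y dropped from 3265 to 19903 CPM at E13 to under 8 CPM at every later stage, while Hbb-bs was still between 11.4 and 23.1 CPM at P60.

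Hbb-y was by far the most abundant member at E13. Its level was 3649, 3265, 5895 and 19903 CPM in the 4 E13 libraries and 5.77, 6.55, 4.73 and 7.54 CPM in the 4 E17 libraries. The groups were separated by more than 2 orders of magnitude, and replicate 4 was the high library at E13. The change was -10.38 ± 0.63 (adjusted p = 1.1e-13), an E17 mean of 0.0752% of the E13 mean. Per kilobase of exon, which allows genes to be compared, the E13 level of Hbb-y was 12919 CPM per kb, against 1072 for Hbb-bs, the next gene in order.

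Hba-x, the zeta chain that pairs with embryonic beta-like chains, fell alongside. It was at 144, 308, 392 and 1504 CPM at E13 and at 0.770, 0.423, 0.388 and 1.07 CPM at E17, a change of -9.84 ± 0.65 (adjusted p = 4.4e-12). Hbb-bh1, the embryonic beta-like gene used earliest in yolk sac red cells, was at 35.5, 29.6, 85.6 and 288 CPM at E13. At E17 it had 0 counts in replicates 1 and 2, and was at 0.0388 CPM in replicate 3 and 0.440 CPM in replicate 4. Its change was -9.98 ± 0.86 (adjusted p = 2.0e-09), and the E13 and E17 libraries did not overlap for any of the 3 embryonic genes.

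The adult genes were present at E13 as well and fell less. Hbb-bs, the more abundant of the adult beta pair, was at 257, 398, 460 and 2176 CPM at E13 and at 168, 263, 226 and 506 CPM at E17. These libraries overlapped, and E13 replicate 4 lay far above the others. The change was -1.501 ± 0.55 (adjusted p = 0.0199), and without E13 replicate 4 it was -0.36 (adjusted p = 0.545), so the call for Hbb-bs rested on that library. The call was also lost without E17 replicate 1 (-1.33, adjusted p = 0.0604). Hbb-bt, its near-copy, was at 185, 288, 369.9 and 1864 CPM at E13 and at 68.3, 95.5, 84.1 and 194 CPM at E17. Its fold change was -2.61 ± 0.57 (adjusted p = 3.0e-04).

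The alpha pair had changes close to that of Hbb-bt. Hba-a1 was at 87.0, 395, 321 and 1282 CPM at E13 and at 57.8, 70.03, 75.1 and 141 CPM at E17, so that E13 replicate 1 lay within the E17 range. Its change was -2.60 ± 0.61 (adjusted p = 6.3e-04), and that of Hba-a2 was -2.48 ± 0.61 (adjusted p = 9.2e-04). Alas2 was at 57.8, 45.3, 90.5 and 320.2 CPM at E13 and at 17.3, 17.4, 16.2 and 34.1 CPM at E17, with no overlap, and changed by -2.60 ± 0.51 (adjusted p = 8.8e-05). Replicate 4 was the highest E13 library for all 8 members. Without it the changes were smaller for every member, at -1.35 for Hbb-bt, -1.64 for Hba-a1, -1.32 for Hba-a2 and -1.61 for Alas2, all still called, and at -9.45 for Hbb-y, -8.86 for Hbb-bh1 and -8.79 for Hba-x.

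In E17 against E13, all 8 members were called lower, where 35.5% of all genes tested were called and 21.2% were called lower. The median change of the members was -2.61 and that of all genes -0.08. For 4 members (Hbb-y, Hbb-bh1, Hba-x and Alas2) the libraries did not overlap, as was so, in the lower direction, for 25% of all genes. Age, the nerves taken and stripping all changed between E13 and E17 and cannot be told apart.

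**Figure D2:**
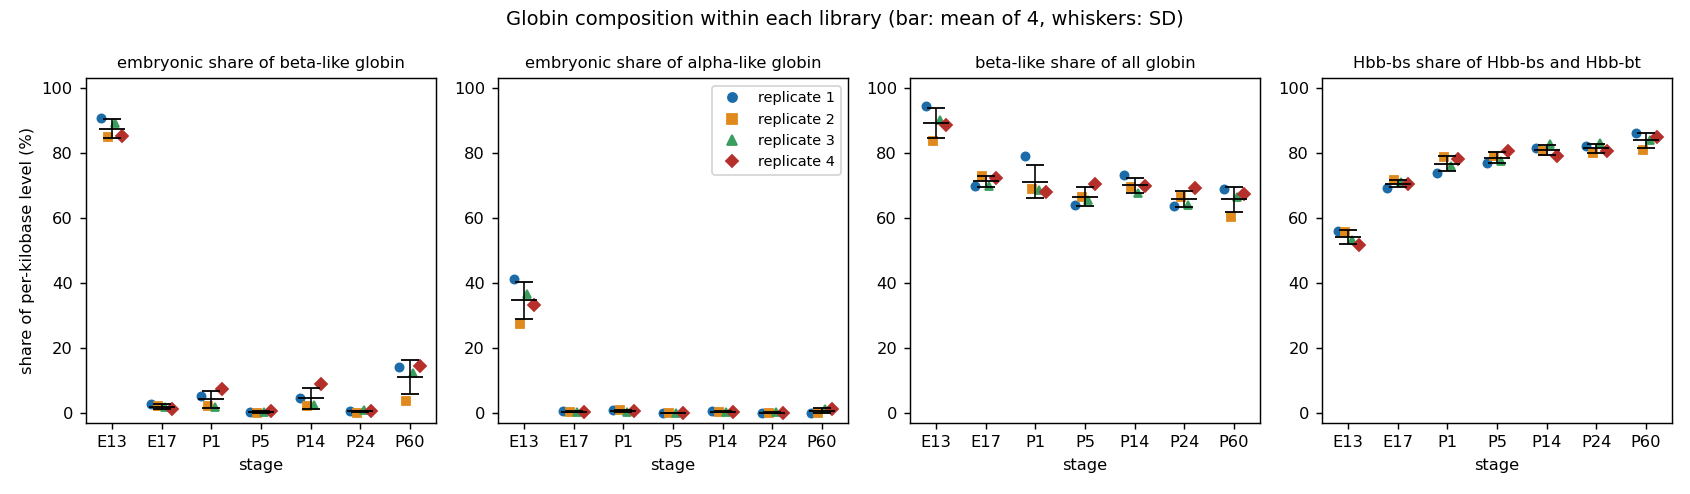
Share of globin composition in each library by stage, from CPM per kilobase of exon, with symbols for libraries and bars and whiskers for the mean and SD of 4. The embryonic share of beta-like globin lay at 84.9% to 90.7% at E13 and at 1.33% to 2.81% at E17, while the Hbb-bs share of the adult beta pair rose from a mean of 54.2% at E13 to 84.0% at P60.

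Shares among the globins of 1 library set aside the total amount of globin RNA in it. By CPM per kilobase, Hbb-y and Hbb-bh1 made up 90.7%, 84.9%, 89.4% and 85.3% of beta-like globin in the E13 libraries and 2.81%, 2.12%, 1.79% and 1.33% in the E17 libraries. Hba-x made up 41.1%, 27.4%, 36.7% and 33.4% of alpha-like globin at E13 and between 0.228% and 0.583% at E17. The alpha-like share was thus less embryonic than the beta-like share in every E13 library. If reads from the shared stretches of the adult pairs had been left out of the counts, the adult genes would be undercounted, and counts per unique 100-base window, an alternative added after seeing the data, put the mean embryonic share at E13 at 71.9% for the beta-like genes and 14.05% for the alpha-like genes.

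Beta-like globin was 89.3% ± 4.49 of all globin at E13 and between 65.8% and 71.3% on average at the later stages. Of the adult beta pair, Hbb-bs made up 56.0%, 55.8%, 53.2% and 51.7% at E13, 69.2%, 71.6%, 71.1% and 70.5% at E17, and 73.9%, 78.9%, 76.0% and 78.2% at P1. Stage means then ran through 78.6%, 80.9% and 81.4% to 84.0% ± 2.28 at P60. The order of Hbb-bs over Hbb-bt therefore held in every library, and the balance between them moved most between E13 and P1. Since both genes share most of their sequence, the size of this share depends on how shared reads were counted.

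The 4 shares were compared between neighbouring stages with an exact permutation test, two-sided, whose p cannot go below 0.0286 with 4 libraries a stage. All 4 shares reached this smallest p between E13 and E17, with an adjusted p of 0.0571 over the 24 tests. The Hbb-bs share of the pair also reached it between E17 and P1. In all, 12 of the 24 tests were at the smallest p, which was too few for any of them to pass 0.05 after adjustment.

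Between E17 and P1 the adult globins and Alas2 fell again. Hbb-bs was at 29.9, 74.6, 87.7 and 51.4 CPM at P1, every library below the lowest at E17, a change of -2.26 ± 0.56 (adjusted p = 0.00307). Hbb-bt changed by -2.74 ± 0.58 (adjusted p = 6.7e-04), Hba-a1 by -2.12 ± 0.61 (adjusted p = 0.0092) and Hba-a2 by -2.35 ± 0.61 (adjusted p = 0.00434). P1 replicate 1 was the lowest library for all 4 adult genes. Alas2 was at 6.12, 6.33, 8.17 and 3.69 CPM at P1, a change of -1.80 ± 0.52 (adjusted p = 0.00873).

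Hbb-y was at 1.82, 1.83, 1.86 and 4.34 CPM at P1, below all E17 libraries, with a change of -1.29 ± 0.49 (adjusted p = 0.0454). That call was lost in 19 of 28 fits with 1 library left out (adjusted p up to 0.114), with the GC trend removed and with no filter on low counts (adjusted p = 0.111). Hba-x was at 0.109 to 0.416 CPM at P1, which overlapped with E17, and was not called (adjusted p = 0.232), although it was with the replicate number as a block (-1.66), with only these stages fitted, without E13 replicate 4 and without all of E13 (adjusted p down to 0.0289). Of Hbb-bh1 a single count was found at P1, and it was called with the replicate block alone (adjusted p = 0.0221). In all, 6 members were called lower at P1, where 11.7% of all genes were called and 5.41% were called lower. The same 6 did not overlap between the stages, against 19.1% of all genes in that direction.

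**Figure D3:**
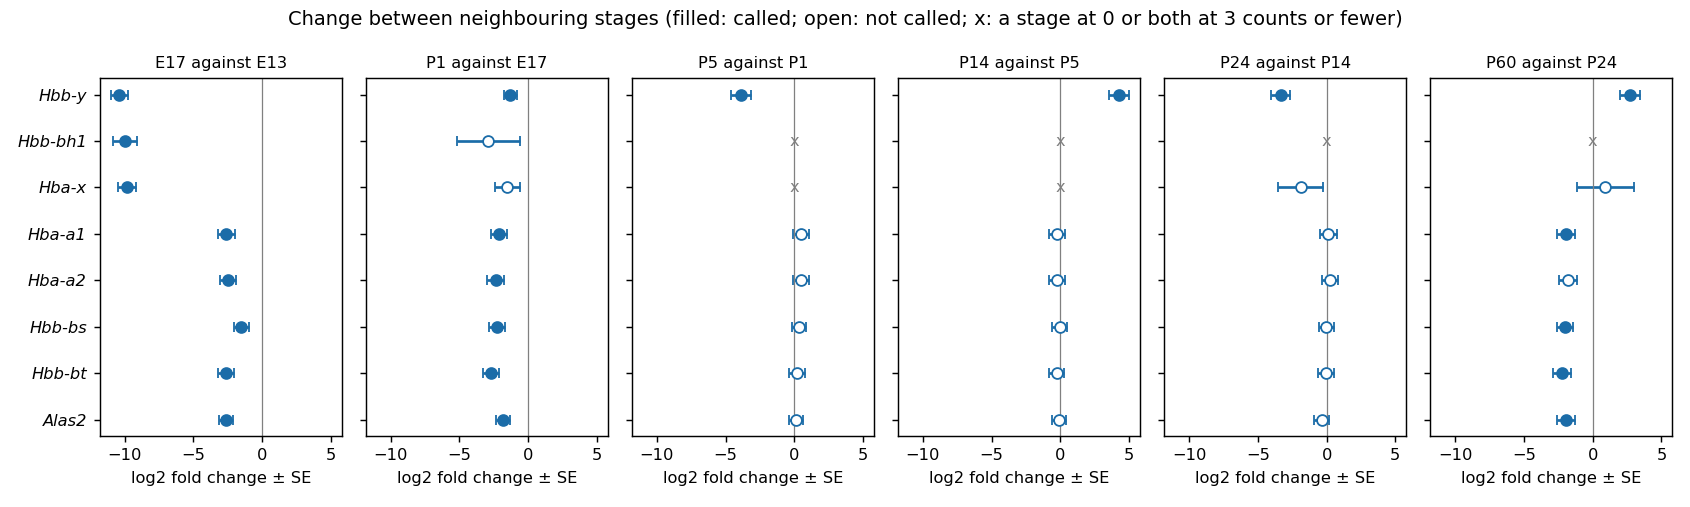
Change of each gene between neighbouring stages as the log2 fold change with its standard error, filled where called and open where not; a cross marks comparisons with no fold. From P1 to P24 the adult globins and Alas2 stayed near 0 and Hbb-y alternated between -3.87, 4.27 and -3.34.

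From P1 to P24 neither an adult globin nor Alas2 was called by edgeR between neighbouring stages, and none had an unadjusted p under 0.05. Over all alternatives, DESeq2 and limma-voom included, their adjusted p was at least 0.336. Hbb-bs had means of 60.9, 77.0, 73.9 and 73.0 CPM at these 4 stages, and Alas2 had means of 6.08, 6.59, 6.24 and 4.88 CPM. At P5, replicate 2 was the highest library for all 4 adult genes and Alas2. Hbb-bs was at 31.0, 177, 58.5 and 41.9 CPM there, and Alas2 at 2.83, 14.8, 4.11 and 4.59 CPM. Without that library the change of Hbb-bs from P1 to P5 went from 0.34 to -0.48, and neither value was called. The summed erythroid markers described further on were not high in P5 replicate 2, at 2.06 CPM against 1.501 to 2.74 CPM in the other libraries of the stage.

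At P60 the adult globins and Alas2 were at their lowest. Hbb-bs was at 79.9, 104, 65.6 and 42.7 CPM at P24 and at 15.0, 23.1, 11.4 and 22.5 CPM at P60, a change of -2.02 ± 0.57 (adjusted p = 0.0152). Hbb-bt changed by -2.25 ± 0.65 (adjusted p = 0.0165), Hba-a1 by -1.96 ± 0.65 (adjusted p = 0.0379) and Alas2 by -1.96 ± 0.65 (adjusted p = 0.0371). Hba-a2 had a change of -1.82 ± 0.65 that missed the threshold (adjusted p = 0.0567). It was called in 6 alternatives, the replicate block and DESeq2 among them (adjusted p down to 0.013), and in 3 fits with 1 library left out. For all 4 adult genes and Alas2 every P60 library was below every P24 library, as was so for 14.6% of all genes. In P60 against P24, 5 members were called, 4 lower and 1 higher, where 5.96% of all genes were called, 3.41% lower and 2.55% higher. Leaving out P24 replicate 2, P60 replicate 1 or P60 replicate 4 left 2 calls each, and leaving out P60 replicate 3 left 1. With no filter on low counts and with limma-voom, Hba-a1, Hbb-bt and Alas2 all lost their calls (adjusted p up to 0.111, 0.128 and 0.226), and Hba-a1 lost it without P24 replicate 1 or 3 too. The call of Alas2 was also lost without E13 replicate 1 and without P60 replicate 2, and with the GC trend removed.

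Over the span in which the same stripped nerve was sampled, from E17 to P60, 6 members were called lower, where 39.7% of all genes were called and 17.5% were called lower. Hbb-bt changed most, by -5.11 ± 0.68 (adjusted p = 2.8e-07), followed by Alas2 with -4.08 ± 0.63 and Hbb-bs with -4.01 ± 0.62. Hba-a1 and Hba-a2 changed by -3.71 ± 0.67 and -3.69 ± 0.67, and Hbb-y by -1.52 ± 0.52 (adjusted p = 0.0136), which without P60 replicate 2 was -1.27 (adjusted p = 0.0502). Hba-x had a value of -2.59 ± 1.27 and was not called (adjusted p = 0.0782), although it was with the replicate block, with library size only, with limma-voom, with DESeq2, without E13 replicate 4 and without all of E13 (adjusted p down to 0.00204). Hbb-bh1 had 0 counts in all P60 libraries, and its E17 mean of 0.12 CPM was under the floor of 3 counts in the shallowest P60 library (0.219 CPM), so no fold is given. For all members but Hbb-bh1 every P60 library lay below every E17 library, as was so for 33.8% of all genes. In a test of any change along all 7 stages all 8 members passed, as did 88.8% of all genes. From E17 to P60 alone 7 passed, all but Hbb-bh1, against 74.3% of all genes.

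Per kilobase, Hbb-bs ranked first among the 8 genes at each stage from E17 on. It stood at 379 ± 194 CPM per kb at E17, above Hbb-bt at 157 ± 80.9, and at 23.4 ± 7.50 at P60, above Hba-a2 at 8.51 ± 3.59. From E17 on, the other adult genes lay closer to each other than to Hbb-bs. Their distances and order depend on how reads shared within each pair were counted. At P1, Hba-a1, Hbb-bt and Hba-a2 were at 24.4 ± 12.8, 23.6 ± 9.70 and 21.4 ± 10.8 CPM per kb. These SDs are between libraries in which the genes vary together, so they do not measure a difference between genes, which was not tested. Hbb-bt was next after Hbb-bs at E17 but below both alpha genes from P5 on, at 4.56 ± 2.00 CPM per kb at P60. Alas2 was lower than each adult globin throughout, with 3.95 ± 0.77 counts per 100 adult globin counts at E17 and 4.01 ± 1.38 at P60.

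The adult genes and Alas2 also varied together within stages. Over the 24 libraries from E17 on, after each stage mean was subtracted on the log2 scale, the 4 adult globins correlated with each other at r = 0.944 to 0.975. With Alas2 they correlated at 0.663 to 0.814 and with Hbb-y at -0.105 to -0.004. These are descriptions without a test, the libraries share their depth and scaling across genes, and shared reads add to the values within each pair. At E17 replicate 4 was the highest library for Hbb-y and the adult globins alike, whereas at P5 replicate 2 was the highest for the adult globins and replicate 3 for Hbb-y.

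After E17 the Hbb-y counts did not decline steadily but alternated. The libraries were pooled for sequencing, and a part of reads carried over from the E13 libraries in these low counts was not tested. Its level was 0.0834, 0.115, 0.257 and 0.220 CPM at P5, and 2.97, 1.47, 2.65 and 5.85 CPM at P14. It was 0.394, 0.157, 0.543 and 0.226 CPM at P24, and 2.34, 0.871, 1.55 and 3.70 CPM at P60. The low stages P5 and P24 did not overlap with the stages before and after them. It was the only member called in P5 against P1 (-3.87 ± 0.73, adjusted p = 3.5e-04), where 5.84% of all genes were called, 1.79% were called lower and 14.6% did not overlap in that direction. In P14 against P5 it was again the only member (4.27 ± 0.72, adjusted p = 4.7e-05), where 12% of all genes were called, 7.11% were called higher and 21.6% did not overlap in that direction. In P24 against P14 it alone was called, with -3.34 ± 0.70 (adjusted p = 0.00295), where 2.65% of all genes were called, 1.14% were called lower and 9.31% did not overlap in that direction. In P60 against P24 it was the 1 member called higher, by 2.72 ± 0.75 (adjusted p = 0.0123), where 12.5% of all genes did not overlap in that direction. The last call was lost without P60 replicate 4 (2.29, adjusted p = 0.0657) and with limma-voom (adjusted p = 0.0897).

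Hba-x was also lowest at P5, at lower counts. It had 0 counts in all 4 P5 libraries, against 24 counts at P1 and 18 at P14 over 4 libraries each. Its P1 mean of 0.221 CPM was at least 1.72-fold above the floor of 3 counts in the shallowest P5 library, and its P14 mean of 0.205 CPM at least 1.60-fold above it. Neither comparison was called in the fit (adjusted p = 0.119 and 0.106). In several other fits both were, as stated in the closing part. At P24 Hba-x had 4 counts and at P60 it had 6.

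The raw Hbb-y counts at P1 and P14 had the same order of replicate numbers as at E13, and those at P60 had it but for replicates 1 and 3. At E13, replicates 1 to 4 held 110168, 80846, 163256 and 378204 counts. At P14 the same numbers held 58, 26, 65 and 154 counts, and at P60 they held 32, 12, 25 and 59 counts. At P1 they held 50, 44, 51 and 140 counts. Replicate 2 was the lowest and replicate 4 the highest in each of these stages. The order depends on depth, since replicate 4 was the deepest library at P1 and at P14. By CPM, replicate 4 stayed the highest at all 4 stages, but at P1 replicate 1 was the lowest and at P14 and P60 replicate 1 lay above replicate 3.

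Set against 10000 Hbb-y counts in the E13 library of the same number, P14 libraries held 3.22 to 5.26 counts, P1 libraries 3.12 to 5.44 and P60 libraries 1.48 to 2.90. The P14 counts themselves spanned 5.92-fold from lowest to highest and these ratios 1.64-fold. At P60 the spans were 4.92-fold and 1.96-fold, and at P1 3.18-fold and 1.74-fold. With depth scaled out the spans narrowed less or not at all. The CPM values spanned 3.98-fold at P14, 4.25-fold at P60 and 2.38-fold at P1, and their ratios to the E13 CPM of the same number 2.77-fold, 3.44-fold and 2.57-fold. In raw counts E17 stood apart, with 105, 124, 122 and 120 counts, a span of 1.18-fold, and ratios that spanned 4.83-fold. At P5 the libraries held 2 to 6 counts and at P24 3 to 11, or 0.159 to 0.674 per 10000. The labels do not tie animals of different stages to each other by these numbers, and the source of the Hbb-y counts after E17 was not tested.

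**Figure D4:**
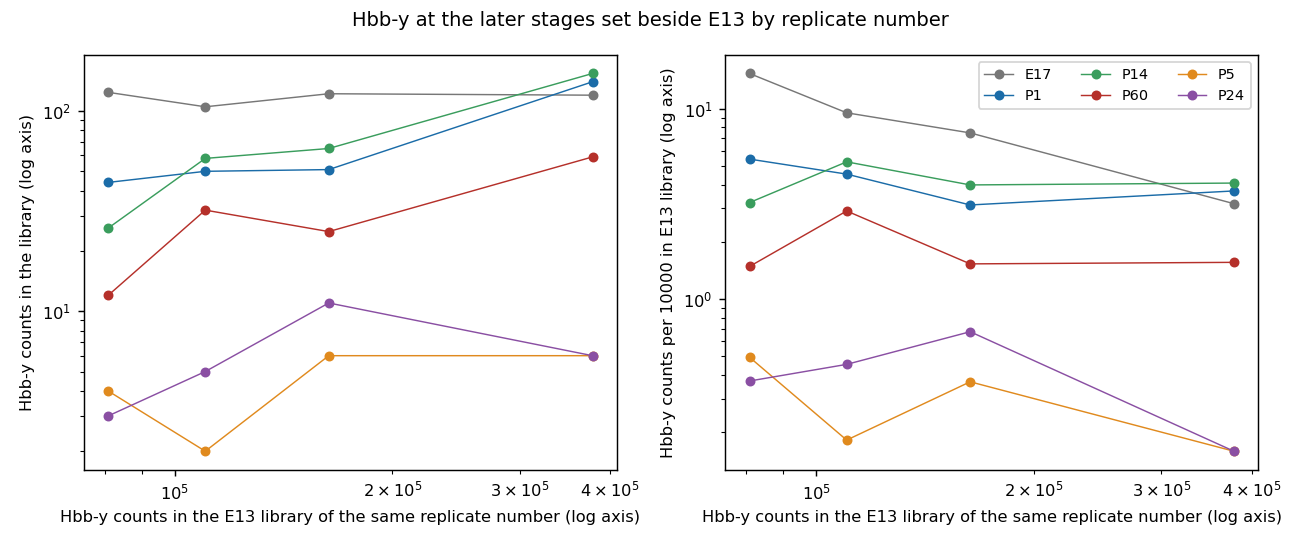
Hbb-y counts at each later stage against the counts in the E13 library with the same replicate number, with a point per library and a line per stage; the right panel divides by the E13 counts, per 10000, and both axes are on log scales. The P1 and P14 counts climb with the E13 counts, as do those of P60 apart from replicates 1 and 3, the E17 counts stay between 105 and 124, and the P5 and P24 counts stay at 11 or fewer.

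The ratio of the embryonic genes to each other was also compared. Of Hba-x and Hbb-y counts together, Hba-x made up 6.56% at E13, with single libraries from 3.79% to 8.62%. At E17 it made up 9.42% (95% exact binomial interval 7.05 to 12.3%), at P1 7.77% (5.04 to 11.3%), at P14 5.61% (3.36 to 8.72%) and at P60 4.48% (1.66 to 9.49%). All of these intervals overlapped the range of the E13 libraries. At P5 it was 0 of 18 counts, which allows a share of up to 18.5%. At P24 it was 4 of 29 counts, or 13.8% (3.89 to 31.7%). The intervals cover counting error only.

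The embryonic share of beta-like globin, which rests on the same low Hbb-y counts, alternated too and was not lowest in the adult. These shares after E17 are of counts in the library, and whether all of them came from the sampled nerve was not tested. Its mean was 4.22% ± 2.62 in the P1 libraries, 0.341% ± 0.194 by P5, 4.55% ± 3.20 in the P14 libraries, then 0.494% ± 0.278 and, for P60, 11.1% ± 5.11. By unique 100-base window the means were lower, at 1.45% for P1, 1.55% for P14 and 3.91% for P60. At P60 the libraries were at 14.04%, 3.56%, 12.2% and 14.5%, all above the P24 libraries, which ran from 0.147% to 0.827%. The 4 comparisons from P1 to P60 each reached the smallest p of the exact permutation test (0.0286, adjusted 0.0571). In absolute terms the P60 value set 2.12 CPM of Hbb-y against 18.0 CPM of Hbb-bs and 3.21 CPM of Hbb-bt.

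Other globin genes moved in both directions. Of 8 listed, 6 were in the table and 4 passed the filter, and 2 of these were called lower in E17 against E13. Hbq1b, a theta globin, had a mean of 1.49 CPM at E13 and 0.0194 CPM at E17, and Mb, which encodes myoglobin, 1.35 and 0.0137 CPM. Fold changes are not given for these because no E17 library held more than 2 counts. Cygb, which encodes cytoglobin, a globin of fibroblast-like cells, was at 7.04 ± 0.66 CPM at E17 and at 22.99 ± 4.497 CPM at P60 (1.71 ± 0.31, adjusted p = 2.9e-05), above the P60 mean of Hbb-bs in CPM not divided by length. It and Hbq1b were the 2 of this list called higher in P60 against E17, where 22.2% of all genes were called higher. None of the list was called lower, against 17.5% of all genes. Other genes of red cell biology were taken from lists written with earlier results of these data known. In E17 against E13, the counts in all lists are to be read against 21.2% called lower and 14.2% called higher among all genes.

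Of 17 genes for the red cell membrane, its skeleton and its enzymes, 16 were tested and 15 were called lower in E17 against E13, with a median of -4.42. Slc4a1, the band 3 anion exchanger, fell from 61.2 ± 53.8 CPM to 1.46 ± 0.61 CPM, a change of -5.42 ± 0.73. Epb42, a membrane skeleton protein, changed by -5.45 ± 0.91. Rhag, the Rh-associated glycoprotein, had a mean of 1.14 CPM at E13 and 0 counts at E17, and Pklr, which encodes the red cell pyruvate kinase, 1.26 CPM at E13 and 1 count in 1 library at E17. Sptb, a beta spectrin that muscle and neurons also use, rose from 1.17 CPM at E17 to 1019.95 ± 102 CPM at P60 (9.76 ± 0.37), and Dmtn, a spectrin-actin linker, by 3.78 ± 0.28. No P60 library held more than 1 count of Slc4a1, which was called lower and for which no fold is given. The list as a whole had 3 genes called higher and 5 lower in P60 against E17, where 22.2% and 17.5% of all genes were called.

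Of 12 erythroid transcription factors and co-factors, 10 were tested, with 6 called lower and 1 higher in E17 against E13, the latter being Zbtb7a (1.40 ± 0.19). Tal1 changed by -3.05 ± 0.29 and Nfe2 by -4.07 ± 0.70. Klf1, the factor that activates the adult beta genes, was at 0.657 CPM at E13 and 0.0692 CPM at E17 (-3.06 ± 0.79). Bcl11a, a repressor of embryonic and fetal globins that neurons also express, was at 43.6 ± 9.71 CPM at E13 and 0.271 ± 0.118 CPM at E17 (-7.32 ± 0.39). Gata1 did not pass the filter, with a mean of 1.07 CPM at E13 and at most 3 counts in any later library. From E17 to P60 the list had 3 genes called higher and 2 lower, where 22.2% and 17.5% of all genes were called. Zbtb7a, a repressor of embryonic and fetal globins used in many tissues, was higher by 1.49 ± 0.18 and Zfpm1, a partner of the GATA factors, by 1.13 ± 0.45, while Myb was lower by -3.95 ± 0.50.

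Of 14 genes of erythroid maturation and its receptors, 12 were tested, with 7 called lower and 1 higher in E17 against E13. Trim10 changed by -4.25 ± 0.73 and Mkrn1 by -2.57 ± 0.15. Epor, the erythropoietin receptor, was at 1.41 ± 0.73 CPM at E13 and 0.433 ± 0.243 CPM at E17 (-1.63 ± 0.65, adjusted p = 0.0321). Hemgn had a mean of 1.85 CPM at E13 and 1 count in 1 library at E17. In P60 against E17, where 22.2% of all genes were called higher and 17.5% lower, 5 genes of this list were called higher and 2 lower, with Isg20, Tmcc2 and Tent5c the largest rises (2.03 ± 0.40, 1.67 ± 0.25 and 1.42 ± 0.26).

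The remaining heme synthesis genes changed less than Alas2 and in both directions. Of the 12, all tested, 0 were called by edgeR in E17 against E13, and their median change was -0.16. An adjusted p under 0.05 was reached by 6, of which 4 were lower and 2 higher, but each changed by less than 2-fold, among them the housekeeping synthase Alas1 (-0.67 ± 0.16) and ferrochelatase, Fech (-0.50 ± 0.15). From E17 to P60, Alad, the enzyme of the step after aminolevulinate synthase, was higher by 1.60 ± 0.27. Alas2 thus had a change of -4.08 over the same stages in which Alas1 had 0.38 ± 0.16.

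Genes for the clearance of heme and haemoglobin and for iron storage moved in both directions. In E17 against E13, 3 of 10 tested were called lower, with Slc40a1, the iron exporter, at -3.11 ± 0.28 and Hmox1, heme oxygenase, at -1.42 ± 0.21. In P60 against E17, 6 of the 10 were called higher and 2 lower, where 22.2% and 17.5% of all genes were called. The lower ones were Slc40a1 (-1.95 ± 0.33) and Blvra, biliverdin reductase A (-1.19 ± 0.15). Cd163, the macrophage receptor for haemoglobin and haptoglobin, rose from 0.185 ± 0.067 to 54.6 ± 6.99 CPM (8.21 ± 0.58). Hp, which encodes haptoglobin, rose by 5.16 ± 0.64, and Fth1, the ferritin heavy chain, from 364 to 7756 CPM (4.41 ± 0.20).

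Markers of other blood cells are given beside the globins because blood brings them too. Summed over 8 erythroid markers, among them Gata1, Klf1, Slc4a1, Epor, Epb42 and Rhag, the mean was 80.1 CPM at E13, with libraries at 31.0, 43.8, 77.1 and 168 CPM, and 2.93 CPM at E17. Later means lay between 0.683 and 2.06 CPM, with up to 7 of the 8 markers at 0 in a library. As for Hbb-y, the highest E13 libraries were replicates 3 and 4. At E13, replicate 4 was also highest in the summed platelet markers, at 37.7 CPM, but not in the neutrophil markers, at 77.9 CPM against 90.6 CPM in replicate 3.

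The 8 neutrophil markers summed to a mean of 61.9 CPM at E13 and 2.50 CPM at E17. All 7 of 7 tested were called lower, where 21.2% of all genes were called lower, with S100a8 at -4.64 ± 0.66 and S100a9 at -4.33 ± 0.76. In P24 replicate 2 they summed to 14.1 CPM against 0.376 to 3.01 CPM in the other P24 libraries. The erythroid markers summed to 5.02 CPM there against 0.527 to 1.42 CPM, and Alas2 was at 9.10 CPM against 3.24 to 3.65 CPM. Hbb-bs, at 104 CPM, was highest in that library too. At P60 the neutrophil sum was 0.331 CPM. Of 7 markers tested, 5 were called lower than at P24, where 3.41% of all genes were called lower. The part of these cells in the fall of the globins from P24 to P60 was not tested.

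**Figure D5:**
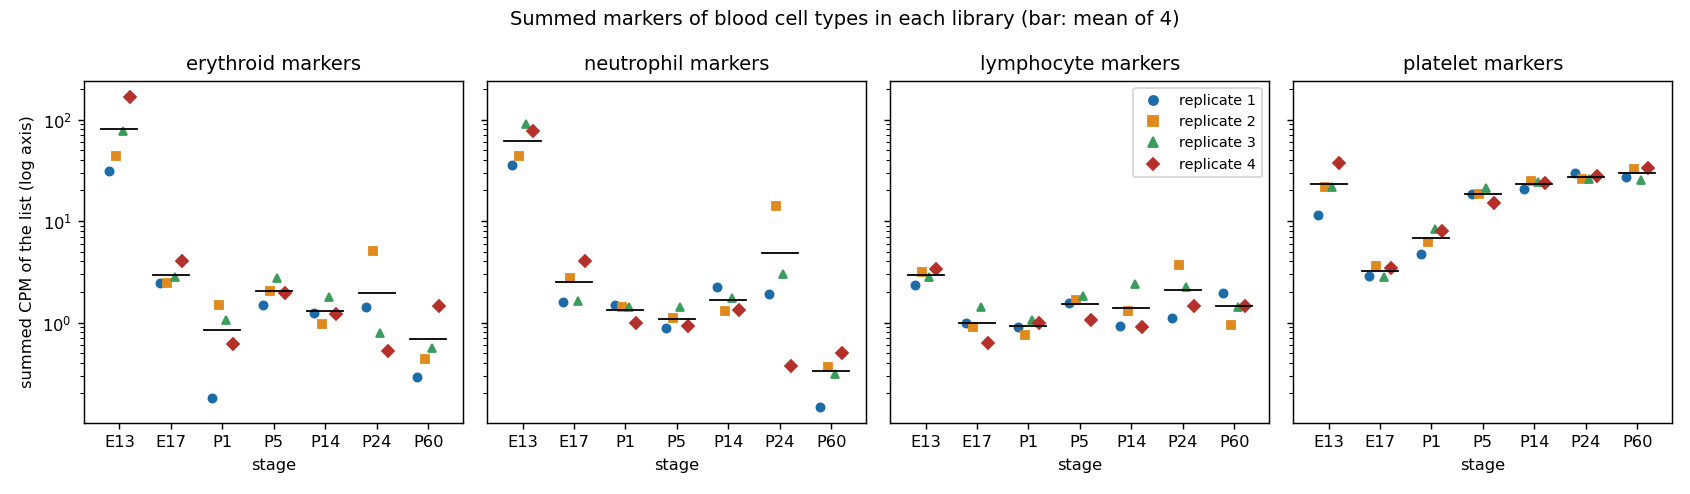
Summed CPM of 8 markers each of erythroid cells, neutrophils, lymphocytes and platelets in every library by stage, on a log axis, with a symbol per library and a bar at the mean of 4. Erythroid and neutrophil sums drop from means of 80.1 and 61.9 CPM at E13 to 2.93 and 2.50 CPM at E17, while the platelet sum climbs from 3.19 CPM at E17 to 29.7 CPM at P60.

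Lymphocyte markers were low at all stages, with sums of 0.628 to 3.66 CPM, and 2 of 8 passed the filter, of which Cd79b was called lower in E17 against E13 (-1.64 ± 0.43). The platelet list had 3 tested and 3 called lower in that comparison, among them Pf4 (-4.06 ± 0.32), then 2 called higher in P60 against E17, Itga2b (3.76 ± 0.31) and Pf4 (3.29 ± 0.32). Pf4 is also made by tissue macrophages, and the more platelet-specific Ppbp was at 0.68 CPM at E13 and between 0.12 and 0.34 CPM later. Endothelial markers, a measure of the vessels that hold the blood, summed to 231 CPM at E13, 367 CPM at E17, 209 CPM at P1 and 504 CPM at P60. Between E17 and P1, where the adult globins and Alas2 fell, the endothelial sum was lower without overlap, as were 19.1% of all genes. Of the 8 markers, 1 (Plvap) was called lower, where 5.41% of all genes were called lower. An unadjusted edgeR p under 0.05 for a lower level was reached by 7 of the 8, and the share of all genes at that threshold is not given here. The part of vessel content in the fall of the globins was not tested. Pecam1 rose in E17 against E13 (1.39 ± 0.16), and 3 of the 8 were called higher in each of E17 against E13 and P60 against E17, where 14.2% and 22.2% of all genes were called higher. Of the other markers, Cdh5, Kdr and Emcn had values of -0.31 ± 0.16, -0.22 ± 0.15 and -0.39 ± 0.17 in P60 against E17 and were not called. Progenitor markers, of which Kit and Cd34 are also used by cells of the nerve, had 3 called lower and 1 higher of 6 in E17 against E13, and all 6 Schwann cell markers were called higher.

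Genes whose pattern was most like the globins were found by Pearson correlation of log2 CPM among 14624 genes that averaged 1 CPM or more. With the summed adult globins over 28 libraries these were Nt5c3b, Zbtb5, Crabp1, Fkbp4 and Rlbp1, with r from 0.903 to 0.912. With the summed embryonic globins they were Trim67, Necab2, Cntn2, Cacng3 and Crtac1, with r from 0.957 to 0.966. These genes were picked for their likeness to the embryonic globins, so a shared order of stages is in part built in, and a part of reads carried over from the E13 libraries in their low levels after E17 was not tested. In the order of the stages, Trim67 had means of 106, 0.624, 0.235, 0.0856, 0.328, 0.0916 and 0.133 CPM. Cntn2 had means of 206, 0.269, 0.21, 0.0646, 0.222, 0.0617 and 0.169 CPM. Necab2 had means of 22.0, 0.935, 0.534, 0.377, 0.431, 0.399 and 0.560 CPM. Crtac1 was at 20.8, 0.663, 0.178, 0.116, 0.245, 0.147 and 0.417 CPM. Cacng3 was at 10.9, 0.169, 0.0831, 0, 0.0128, 0 and 0 CPM, with no rise at P60. With the adult globins after subtraction of stage means, over 24 libraries from E17 on, the genes were Rsph3b, Smim27, AC139579.1, Nme3 and Dus1l, with r from 0.739 to 0.780. These correlations are descriptions, and the libraries share their depth, scaling and stage.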

How the data were processed

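Poly-A RNA from mouse nerves was sequenced from stranded libraries. The authors trimmed the single-end reads, aligned them with STAR (2.6.1c per the labels) and summarised them by gene in featureCounts. The deposited values are raw counts, whole numbers with no normalization. The submitters' notes name GRCm38.p5, while the methods name a human build. Strand and multi-mapping settings are not given in the sources used here. Of 41605 identifiers, 41519 matched GENCODE M21 (GRCm38), which supplied symbols and positions. No column belonged to another sample.

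Groups were the labelled stages. Genes were kept by filterByExpr (17700), scaled by TMM and fitted with edgeR 4.0.16 (R 4.3.3; robust quasi-likelihood, stage as the only term, all 28 libraries, common dispersion 0.0439). The 6 neighbouring pairs and P60 against E17 were tested. In simulated counts for P5 against P1, 200 of 200 changed genes were called, with 5 false calls among 16970 genes. How often a change of the members themselves would be called was not tested. In the measured P5 against P1, log2 standard errors of the adult globins and Alas2 ran from 0.51 to 0.59. Globin shares used counts per kilobase of exon and exact permutation tests in scipy 1.17.1. Folds against a stage at 0 used a floor of 3 counts in its shallowest library. Alternatives were other scalings and filters, removal of a GC trend, the replicate block, fewer stages, near-identical pairs summed, limma-voom (limma 3.58.1), DESeq2 1.42.0 and each library left out.

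With totals of 13899895 to 37662780 counts, some members rest on few counts: after E17 Hbb-y, Hba-x and Hbb-bh1, and at P60 also Hbb-bt, with 30 to 69 counts a library. Replicate pairs within a stage differed by a chi-square of 5.45 to 317 per degree of freedom, so no library was counted as a copy of another. Replicate numbers were not used to pair libraries: deviations of same-numbered libraries correlated at -0.2 to 0.57 over 84 pairs, although 17 of the 28 libraries correlated best with their own number.

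The 8 members, the 12 gene lists and the tests were chosen with earlier results of these data known. Named genes were the members, up to 3 genes a list by size of change among those called with at least 1 CPM in the higher stage in E17 against E13 or P60 against E17, a few defining genes, and the 5 genes most like each globin sum. Some named genes are not reported here.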

Additional observations from a re-analysis of the deposited data

Results flagged for a closer look

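The 84 sets of 4 libraries examined were the 8 members and 4 shares at each of 7 stages. In 12 of them 1 library was apart from the other 3 by Dixon's test at the 95% level. Chance gives about 1 in 20 where sets are independent and values are normally distributed. The members vary together, and some sets held only 0 counts or a single count, so 12 of 84 cannot be read against that rate. At E13 it was replicate 4 for Hbb-y (19903 CPM), Hbb-bs (2176 CPM), Hbb-bt (1864 CPM) and Alas2 (320.2 CPM), each the highest of its stage. E17 replicate 4 was apart for Hbb-bh1 (0.440 CPM) and Alas2 (34.1 CPM). P1 replicate 4 was apart for Hbb-y (4.34 CPM against 1.82 to 1.86 CPM) and for Hbb-bh1 (0.0310 CPM, a single count), and P5 replicate 1 for Hbb-bh1 (0.0417 CPM, a single count). Alas2 was high in P5 replicate 2 (14.8 CPM) and in P24 replicate 2 (9.10 CPM). In P1 replicate 1, the library with the lowest adult globins of its stage, beta-like genes made up 79.0% of all globin against 68.2% to 69.0% in the others. That library also stood apart in its trend with GC content, with a slope of -0.43 per 10 percentage points. The part of this trend in its globin values was not tested.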

How the results depend on the processing

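In E17 against E13, between 7 and 8 members were called under every alternative, and where there were 7 the lost call was that of Hbb-bs (no filter on low counts, only those 2 stages fitted, limma-voom, without E13 replicate 4 and without E17 replicate 1). With the replicate number as a block, P5 against P1 and P14 against P5 gave 2 called members each in place of 1, the added member being Hba-x; without the E13 stage, with limma-voom and with DESeq2 the counts were also 2. Leaving out single libraries gave 1 to 2 in both comparisons. In P1 against E17 the 6 calls ran from 5 to 8, with 8 under the block, and in P60 against E17 the 6 calls ran from 5 to 8, again with 8 under the block. The block moved no other count of called members by over 1.5 times. Under it, Hbb-bs in P14 against P5 went to 0.11 and Alas2 to 0.046, neither called. In P60 against P24 the 5 calls became 2 with no filter on low counts, 1 with limma-voom (Hbb-bs) and 1 to 6 with single libraries left out. Values near 0 that changed sign, none of them called, were with limma-voom Hbb-bs (-0.033) and Hbb-bt (-0.023) in P5 against P1, Hbb-bs in P14 against P5 (0.081) and Hba-a1 in P24 against P14 (-0.023), and with library size only Alas2 in P5 against P1 (-0.062), Hbb-bs (0.033) and Hbb-bt (0.016) in P24 against P14. With single libraries left out, P5 against P1 ranged from -0.34 to 0.82 for Hba-a1, -0.31 to 0.72 for Hba-a2, -0.48 to 0.60 for Hbb-bs, -0.58 to 0.48 for Hbb-bt and -0.65 to 0.38 for Alas2. P14 against P5 ranged from -0.61 to 0.57 for Hba-a1, -0.53 to 0.54 for Hba-a2, -0.32 to 0.75 for Hbb-bs, -0.53 to 0.50 for Hbb-bt and -0.34 to 0.69 for Alas2. P24 against P14 ranged from -0.10 to 0.48 for Hba-a1, -0.24 to 0.24 for Hbb-bs and -0.33 to 0.14 for Hbb-bt, and P60 against P24 from -0.14 to 1.41 for Hba-x. The difference in the beta-like share of all globin between P1 and E17, -0.03 percentage points, became 0.0046 in log2 odds and 0.717 by unique windows. For the sign changes the cause was not tested. Scaling by library size only moved the median change of all genes to -0.33 in E17 against E13, -0.31 in P60 against E17, -0.19 in P5 against P1 and -0.17 in P14 against P5. Hbb-bh1 after E17 and Hba-x after P1 had 10 counts or fewer a library.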
